A study of Drosophila melanogaster with 4 samples.

Results

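Broad HP1b domains are the widest members of the series-wide list of regions enriched for HP1b, a chromodomain protein of the Heterochromatin Protein 1 family. A region was counted as broad when it spanned at least 5000 bp from its first to its last base. This took 352 of the 9130 series-wide regions (3.86%), with a total length of 2.35 Mb, or 11.3% of the bases in the list. The list came from chromatin immunoprecipitation and sequencing (ChIP-seq) of wild-type Oregon-R embryos of Drosophila melanogaster, collected at 14 to 16 h of development and fixed with 1.8% formaldehyde. It belongs to 2 HP1b ChIP libraries made with antibody Q4114, called replicates 1 and 2. The series also holds 2 Input libraries with the same replicate numbers. All samples share strain, genotype and stage, so there is no second condition. Whole embryos were used, and the regions are therefore averages over all of their tissues. Whether the replicates are separate collections of embryos is not stated in the labels, and the spread between them may be technical. Replicate 1 had 5248 regions of its own and replicate 2 had 4633.

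HP1 proteins bind the methylated tail of histone H3 through the chromodomain and pair with each other through the chromo shadow domain. HP1a is the classical component of fly heterochromatin, the compact chromatin around centromeres and on chromosome 4, and its relative HP1b has been found in both heterochromatin and euchromatin. The chromosome arms hold most genes, while the sequence around the centromeres is rich in repeats.

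The members were chosen by their width in the series-wide list, so their widths describe the choice and are no finding. The series-wide list may have been made from the same reads as the replicate lists, and the single group of 2 libraries permits no test over samples. The values below are therefore descriptions without p-values. Those of the 8778 regions narrower than 5000 bp stand beside them, and intervals on shares cover counting error alone. Coordinates are those of FlyBase release 5. Genes are not named, because the annotation at hand is of release 6.

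Most broad domains were only modestly wider than the limit. Their width had a median of 6088 bp and quartiles of 5407 and 7202 bp, against a median of 1969 bp in narrower regions. Of the 352 domains, 183 reached 6000 bp, 58 reached 8000 bp, 23 reached 10000 bp and 3 reached 15000 bp. There was no step at the limit. The 3 narrowest domains measured 5001 to 5003 bp with scores of 0.52 to 0.88, and the 3 widest regions below the limit measured 4985 to 4987 bp with scores of 0.50 to 0.76. The 106 domains of 5000 to under 5500 bp had a median score of 0.82, against 0.78 in the 164 regions of 4500 to under 5000 bp.

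Broad domains scored above the typical region. The authors give each region 1 score and the sources used here do not define it. The median score was 0.86 in broad domains and 0.45 in narrower regions. Of the broad domains, 241 (68.5%) lay in the 25% of the series-wide list with the highest scores, against 23.3% of narrower regions. Broad domains were 3.86% of the whole list, and their counts at its very top were near that share. None was among the 20 highest-scoring regions and 3 were among the highest 100. These were 3L:4623652-4628728 (5077 bp, score 2.40, rank 51), 2L:20081832-20087748 (5917 bp, score 2.06, rank 79) and X:5637772-5642852 (5081 bp, score 1.96, rank 96). Each was a single region in both replicates, with at least 90.9% of its bases covered.

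In the series-wide list, broad domains were most frequent, relative to all regions, on chromosome 4 and on X. Among regions found in both replicates, chromosome 4 still led with 32.8% broad, but the heterochromatin scaffolds, with 28.6%, stood above X, with 13.4%. This set held 340 of the 352 broad domains but 3489 of the 8778 narrower regions, so broad shares are higher in it. In narrower scaffold regions the upper quartile of cover was 0% in each replicate, so few of them entered this set. Chromosome 4, the small autosome on which heterochromatin and active genes alternate, held 22 broad domains, which were 13.1% of its 168 regions (95% Wilson interval 8.81 to 19.0%), against 3.84% on the 5 major arms, which are X and the autosomal 2L, 2R, 3L and 3R (3.44 to 4.29%). Per length this was 16.3 domains per Mb on chromosome 4 and 2.58 per Mb on the major arms. Broad domains made up 12.6% of the sequence of chromosome 4, and 35.7% of the bases in its regions, against 1.69% and 10.9% on the major arms. Of the major-arm regions found in both replicates, 8.10% were broad.

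X held 107 domains, 30.4% of them all and more than any other arm. They were 6.19% of the X regions (95% Wilson interval 5.15 to 7.42%), against 3.20% on the 4 autosomal arms together (2.79 to 3.66%). The density was 4.77 domains per Mb on X, against 2.07 per Mb on the autosomal arms. With regions found in both replicates alone, the share was 13.4% on X, against 6.65% on the autosomal arms. That set keeps broad domains more often than narrower regions, so it is no separate check. By arm, 2R held 67 domains (4.17% of its regions), 3L 49 (3.04%), 3R 46 (2.77%) and 2L 38 (2.76%). The scaffolds of assembled heterochromatin held 20 domains (3.13% of 639 regions), namely 10 on 2RHet, 6 on 3LHet, 3 on 3RHet and 1 on 2LHet. XHet, with 18 regions, and YHet, with 6, had no broad domain, which leaves upper Wilson bounds of 17.6% and 39.0%. On U, the collection of unplaced sequence, 3 of 336 regions were broad (0.893%).

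Each replicate list has widths of its own, which the choice of the members did not use directly. Replicate 1 had 161 regions of at least 5000 bp (3.07% of its list) and replicate 2 had 100 (2.16%), and each of them overlapped a broad series-wide domain. On X such regions were 5.50% of replicate 1 and 3.55% of replicate 2 (4.52% ± 1.38, SD, n = 2), against 2.22% and 1.66% on the autosomal arms (1.94% ± 0.399, SD, n = 2). The lower X value exceeded the higher autosomal value, and the ratio of X to the autosomal arms was 2.48 in replicate 1 and 2.14 in replicate 2, beside 1.94 in the series-wide list. On chromosome 4 they were 6.45% and 4.65% (5.55% ± 1.27, SD, n = 2), from 6 and 4 regions, against 2.94% and 2.07% on the major arms (2.50% ± 0.615, SD, n = 2). The ratio of chromosome 4 to the major arms was thus 2.19 in replicate 1 and 2.25 in replicate 2, lower than the 3.41 of the series-wide list. On the heterochromatin scaffolds the shares were 5.65% and 3.67%, from 10 and 4 regions. They were above those of the major arms in both replicates, while the series-wide share of 3.13% was below that of the major arms. Per length, wide regions were fewer on the scaffolds, at 1.08 and 0.431 per Mb in the replicates, against 1.21 and 0.765 on the major arms. Series-wide there were 2.15 broad domains per Mb on the scaffolds, against 2.58 on the major arms. In the series-wide list the ratio of the share on the scaffolds to that on the major arms was 0.814 at the 5000 bp limit. It turned to 1.32 at 6000 bp, 1.56 at 10000 bp and 3.53 among regions found in both replicates. For 2R the ratio to all autosomal arms was 1.08 and 1.11 in the replicates and 1.30 in the series-wide list.

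**Figure D1:**
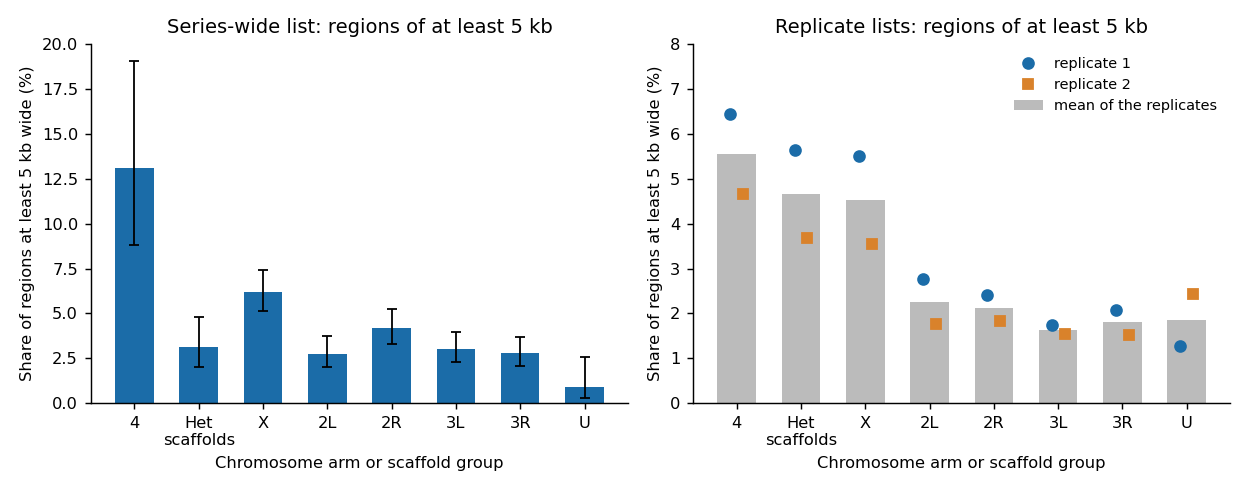
Share of regions at least 5 kb wide by arm or scaffold group (percent), in the series-wide list (left, bars with 95% Wilson intervals) and in the replicate lists (right, bars for the mean, points for each replicate). X and chromosome 4 stand above the 4 autosomal arms in both panels, with 6.19% and 13.1% in the series-wide list, and the heterochromatin scaffolds do so in the replicate lists.

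Along the arms, broad domains gathered at the centromeric end of 2R. The first 2 Mb of 2R held 23 domains, 8.46% of the regions there, against 44 domains and 3.30% on the rest of the arm. The first 1 Mb alone held 13, more than any other 1 Mb bin of the major arms. The domains of the first 2 Mb had a median score of 0.63, against 0.82 on the rest of 2R. On the other arms the centromeric 2 Mb held 6 domains on 3L, 5 on 2L, 3 on X and 2 on 3R. Their share of the regions there was 2.79% on 3L, 2.98% on 2L and 1.38% on 3R. On the rest of these 3 arms it was 3.07%, 2.73% and 2.91%. On X the share of regions that were broad was 2.88% in the centromeric 2 Mb and 6.40% on the rest of the arm. The fullest 1 Mb bin of X, from 6 to 7 Mb, held 11 domains, and 1 of its 23 bins held none.

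Nearly every broad domain was found in each replicate, though often not as 1 region. A domain was called whole in a replicate when exactly 1 replicate region overlapped it and covered at least 80% of its bases, partial when 1 region covered less, in pieces when 2 or more regions overlapped it, and absent when none did. Replicate 1 had a region in 349 of the 352 domains (99.1%) and replicate 2 in 341 (96.9%), against 55.7% and 48.1% of all 9130 series-wide regions. For narrower regions the shares were 54.0% and 46.1%. They were 68.0% and 58.2% of the narrower regions at least as wide as the shortest replicate region of 1301 bp, and 88.6% and 87.1% of the narrower regions whose score lay between the quartiles of the broad domains' scores, 0.65 and 1.12. This score-matched set was also wider than narrower regions in general, with a median of 2559 bp against 1969 bp. By width, 1.74% of the regions of 4000 to under 5000 bp were absent from replicate 1 and 6.45% from replicate 2, and 69.1% and 80.4% of those of 1300 to under 2000 bp. Presence thus moved with both width and score, and the part of each was not tested.

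In replicate 1, 171 domains were whole (48.6%, 95% Wilson interval 43.4 to 53.8%), 81 were partial (23.0%), 97 were in pieces (27.6%, 23.2 to 32.4%) and 3 were absent. Over all series-wide regions the shares in replicate 1 were 41.9% whole, 12.1% partial, 1.7% in pieces and 44.3% absent. In replicate 2, 95 domains were whole (27.0%, 22.6 to 31.9%), 117 were partial (33.2%), 129 were in pieces (36.6%, 31.8 to 41.8%) and 11 were absent. The shares of all series-wide regions there were 31.1% whole, 15% partial, 2.03% in pieces and 51.9% absent. Over the replicates 37.8% ± 15.3 were whole and 32.1% ± 6.43 in pieces (SD, n = 2). Narrower regions were in pieces in 0.661% and 0.638% of cases, and those of 4000 to under 5000 bp in 9.93% and 12.2%. Replicate regions are at least 1301 bp wide, which leaves a narrow region little room for more than 1 wholly inside it. The part of this in these shares was not tested. The replicates often differed in the state of the same domain. They shared it for 79 domains that were whole in both (22.4%, against 24.4% of all series-wide regions) and 59 that were in pieces in both (16.8%, against 0.789%). Another 46 domains were whole in replicate 1 and in pieces in replicate 2, and 8 were the reverse.

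The wider the domain, the more often it was in pieces. Among domains of 5 to 7 kb, 17.3% were in pieces in replicate 1 and 26.5% in replicate 2. The shares were 48.8% and 53.8% at 7 to 10 kb and 65.2% and 87.0% among the 23 domains of 10 kb or more. A long domain has more room for a break, so breaks were also counted per length. There were 0.301 and 0.462 breaks per 10 kb of domain at 5 to 7 kb, and 0.615 and 1.05 at 10 kb or more, although in replicate 1 the class of 7 to 10 kb was higher still, at 0.734. None of the 23 widest was whole in replicate 2, and 30.4% were whole in replicate 1. Width chose the domains, so the order of these shares is a description.

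**Figure D2:**
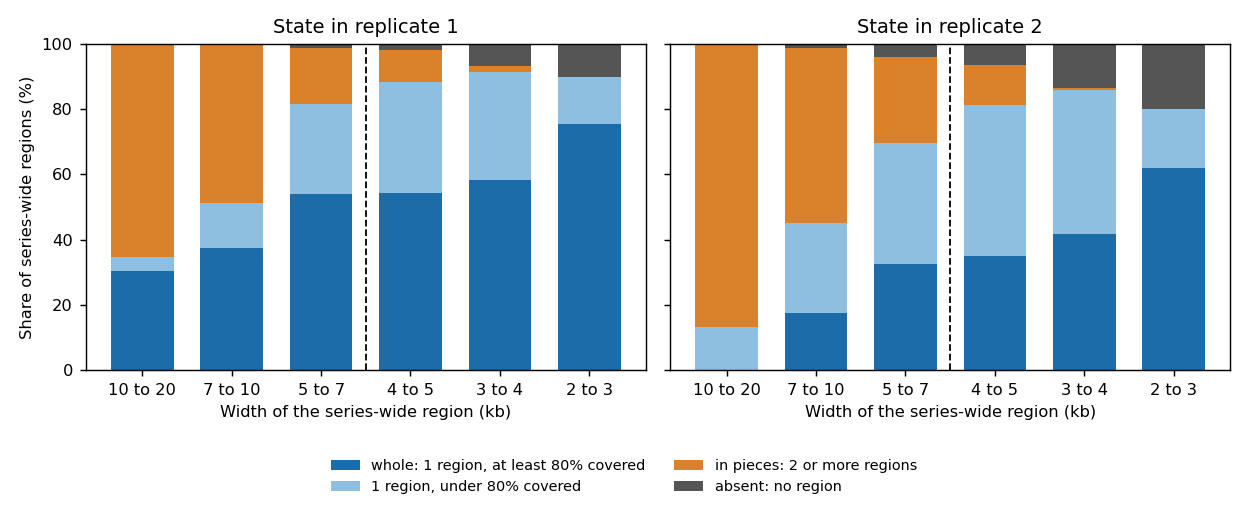
State of series-wide regions of 2 kb or more in replicate 1 (left) and replicate 2 (right), as a percent of each width class, with the 5 kb limit as a dashed line. The share in pieces was 65.2% and 87.0% in the widest class, and falls in each narrower class shown.

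Breaks within domains were short. Replicate 1 had 106 gaps between neighbouring regions of 1 domain and replicate 2 had 142, with medians of 429 and 441 bp. Of these gaps, 55.7% and 54.9% were under 500 bp, and 77.4% and 78.2% were under 1000 bp. The longest measured 4407 bp in replicate 1 and 4296 bp in replicate 2. Joining replicate regions less than 500 bp apart would leave 15.1% of domains in pieces on average over the replicates, and joining those less than 1000 bp apart 7.53%. The breaks partly recurred. In 45 of the 59 domains in pieces in both replicates (76.3%), a gap of replicate 1 overlapped a gap of replicate 2. Where replicate 1 held the domain as 1 region, that region spanned 65 of 72 gaps of replicate 2 in full (90.3%). In the opposite direction replicate 2 spanned 13 of 34 gaps of replicate 1 (38.2%).

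Most of the bases of the domains were covered in both replicates. Replicate 1 covered 82.6% of all domain bases and replicate 2 covered 72.5%. Both covered 67.1%, a single replicate 20.9% and neither 12.0%, against 41.4%, 24.1% and 34.6% of the bases of narrower regions. Per domain the median cover was 88.6% in replicate 1 (quartiles 74.5 and 95.9%) and 77.5% in replicate 2 (60.2 and 90.9%). Replicate 1 covered more of the domain than replicate 2 in 249 domains and less in 101. Each replicate covered at least 50% of the bases in 289 of the 352 domains, and at least 80% in 140. In narrower regions the median cover was 63.6% in replicate 1 and 0% in replicate 2. Bases covered by both replicates made up at least 50% of 281 domains, and of 3258 of the 8778 narrower regions. Narrower regions with scores between the broad domains' quartiles had a higher median cover than the domains, of 93.6% in replicate 1 and 88.4% in replicate 2. In regions of 4000 to under 5000 bp it was 87.9% and 75.3%. The outer ends of the replicate regions usually lay inside the domain. In replicate 1 they fell short of the lower and upper ends by medians of 101 and 131 bp, and in replicate 2 by 272 and 257 bp.

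Cover differed by place. Its median was 76.0% in replicate 1 and 59.8% in replicate 2 on chromosome 4, 78.1% and 54.4% on the heterochromatin scaffolds, and 89.2% and 80.04% on the major arms. Of the 22 domains of chromosome 4, 11 were in pieces in replicate 1 and 14 in replicate 2, with 4 and 2 whole. Of the 20 in heterochromatin, 6 and 3 were in pieces, 8 and 2 whole and 6 and 13 partial. For the major arms 158 and 90 of 307 domains were whole. The domains of chromosome 4 were also wider (median 6994 bp against 5953 bp on the major arms) and lower in score (median 0.63 against 0.90), and the part of width and score in their state was not tested. In the centromeric 2 Mb of 2R, 6 of 23 domains were whole in replicate 1, and 2 were in replicate 2. On the rest of 2R these were 20 and 13 of 44.

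**Figure D3:**
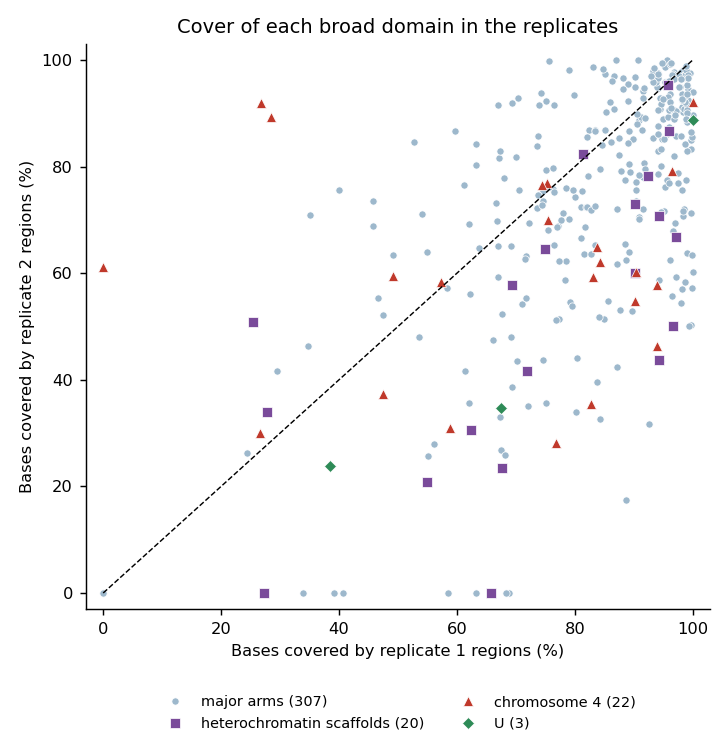
Percent of the bases of each of the 352 broad domains covered by replicate 1 regions (horizontal) and by replicate 2 regions (vertical), 1 point per domain, with equal cover as a dashed line. Most points lie at high cover and below the line, with medians of 88.6% in replicate 1 and 77.5% in replicate 2; replicate 2 medians are 59.8% on chromosome 4 and 54.4% on the heterochromatin scaffolds, and points at 0% include domains of the major arms.

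The domains without a region in 1 or both replicates had low scores. There were 12 of them, with scores of 0.36 to 0.53 (median 0.44) and widths of 5053 to 8315 bp (median 5456 bp), against a median score of 0.88 and a median width of 6099 bp in the other 340. Of the 12, 5 lay on 2R, 4 of them within its centromeric 2 Mb, and 2 each on 3L and 2RHet. The 2 domains absent from both replicates, as were 38.1% of all series-wide regions, were neighbours with 285 bp between them, 2R:1162742-1168140 (5399 bp, score 0.43) and 2R:1168426-1174094 (5669 bp, score 0.40). A chromosome 4 domain, 4:137230-142758, had no region in replicate 1 and 2 regions over 61.2% of its bases in replicate 2.

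The widest domains show how the lists divide the same stretch. The widest of all, at 3L:632642-648762 (16121 bp, score 0.63), consisted of 3 regions in replicate 1, covering 71.6%, and of 4 in replicate 2, covering 62.7%. Its largest gap measured 2524 bp in replicate 1 and 1569 bp in replicate 2. The second, at X:7590170-7605916 (15747 bp, score 1.07), was by contrast nearly unbroken. A single replicate 1 region of 14231 bp covered 90.3% of it, and replicate 2 regions of 2825 and 12428 bp, separated by 94 bp, covered 96.9%. These were the widest regions of both replicate lists. The third, at 2L:22960138-22975550 (15413 bp, score 0.86), lay at the centromeric end of the arm and was in 2 pieces in each replicate, covering 90.9% and 70.6%.

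The next widest were of both kinds. At X:2189176-2202302 (13127 bp, score 0.92) there were 2 regions in replicate 1, with a gap of 27 bp, and 4 in replicate 2. At 2R:129610-142326 (12717 bp, score 1.01) replicate 1 had 1 region over 62.0% and replicate 2 had 3 over 69.3%. At X:4822994-4835652 (12659 bp, score 1.41) replicate 1 had 1 region over 98.6% and replicate 2 had 2 over 92.1%. Among these 3, the last had the highest score and the most complete cover. At 4:195858-208354 (12497 bp, score 0.73) each replicate had 2 regions, over 49.2% and 59.4%, and both left the lower end of the domain bare. The list of the 10 widest was completed by 2L:2191248-2203554 (12307 bp, score 0.95), X:8784342-8796632 (12291 bp, score 0.95) and 2L:12001354-12013494 (12141 bp, score 1.54). At the last of these, each replicate had 2 regions with a single gap, of 595 bp in replicate 1 and 427 bp in replicate 2. Of the 10 widest, 4 lay on X, 3 on 2L and 1 each on 2R, 3L and chromosome 4.

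**Figure D4:**
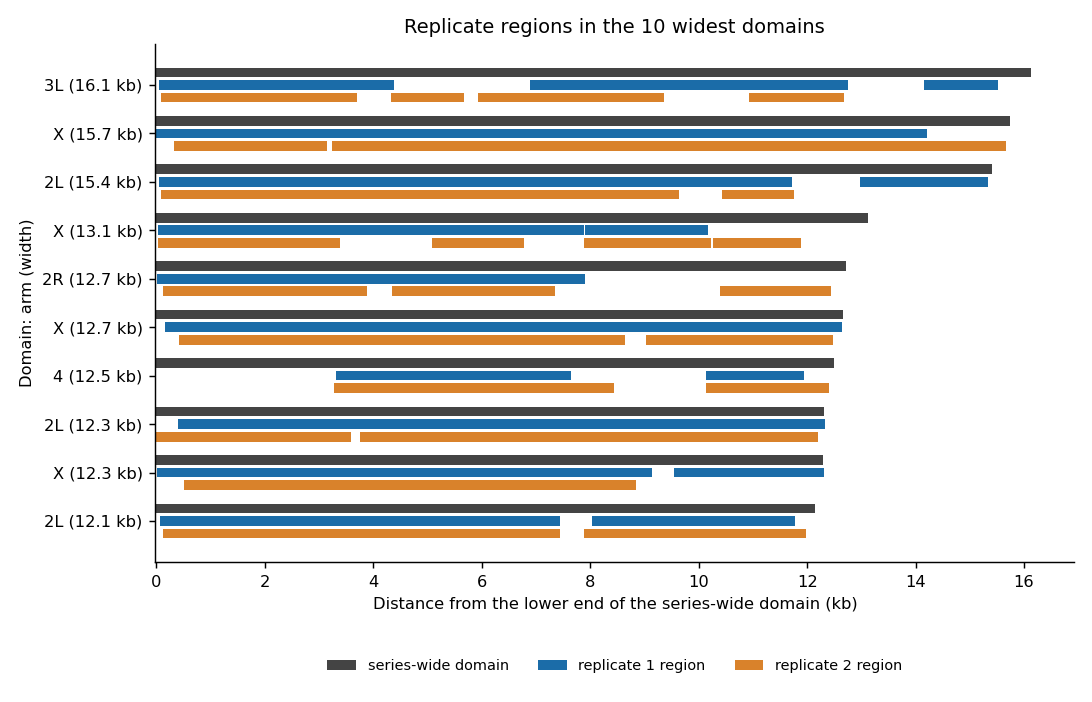
The 10 widest broad domains, aligned at their lower ends (distance in kb), with the series-wide domain above the regions of replicate 1 and of replicate 2. Breaks fall at or near the same place in both replicates in some domains, such as the lowest one drawn, with gaps of 595 and 427 bp, and are found in 1 replicate alone in others.

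The widest domains of 3R, of the scaffolds and of U were shorter, as were the second widest of 2R, 3L and chromosome 4. These second-widest domains were 2R:498312-508076 (9765 bp, score 0.65), 3L:2580748-2591994 (11247 bp, score 1.06), and 4:474634-486104 (11471 bp, score 0.53). The 3L domain shared the highest number of pieces with the widest of all, 3 in replicate 1 and 4 in replicate 2, yet it was covered 96.9% and 88.9%, since its gaps were at most 121 and 440 bp. Another X domain with 3 replicate 1 regions, X:1273614-1283530 (9917 bp, score 0.63), had a replicate 2 gap of 4296 bp, the longest of that replicate. The 2 widest of 3R, 3R:12030432-12041854 (11423 bp, score 0.83) and 3R:12072486-12083164 (10679 bp, score 1.20), lay with another broad domain in a run of 3 that spanned 52.7 kb, and replicate 1 covered 89.0% and 91.5% of them. In heterochromatin the widest were 2RHet:2821072-2831828 (10757 bp, score 0.74), 3LHet:2189956-2199144 (9189 bp, score 0.74), 2LHet:167748-175004 (7257 bp, score 1.25) and 3RHet:1898570-1905252 (6683 bp, score 0.78). Replicate 1 covered 90.3 to 95.9% of each, and replicate 2 covered 73.1%, 43.6%, 78.2% and 86.6%. On U the widest, U:3477788-3484518 (6731 bp, score 0.94), was whole in both replicates, with 100% and 88.6% covered.

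The widest domains that were whole in both replicates were of intermediate width. They lay at 2R:17587042-17595596 (8555 bp, score 1.37) and 2R:8473534-8482062 (8529 bp, score 0.80) and at 3L:14747724-14755948 (8225 bp, score 1.17). Replicate 1 covered 95.8%, 96.7% and 99.0% of them, and replicate 2 covered 89.3%, 90.4% and 95.3%.

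Wide regions chosen in 1 replicate were also looked up in the other, a measure that the choice did not use. All 161 wide regions of replicate 1 overlapped a region of replicate 2, against 73.7% of the 5087 narrower ones, and all 100 of replicate 2 overlapped a region of replicate 1, against 85.6% of 4533. The other replicate covered a median of 89.9% of the wide replicate 1 regions and 99.2% of the wide regions of replicate 2, against 88.3% and 98.1% of the narrower ones. Width itself recurred in part. Replicate 2 had an overlapping region of at least 5000 bp for 78 of the 161 (48.4%), and replicate 1 for 78 of the 100 (78.0%), against 0.668% and 3.02% of the narrower regions. Of the wide regions of replicate 1, 31.7% were in pieces in replicate 2, while 11.0% of those of replicate 2 were in pieces in replicate 1. Wide regions also scored higher in their own list, with medians of 1.14 against 0.66 in replicate 1 and 1.10 against 0.74 in replicate 2, and the part of the score in these shares was not tested.

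Broad domains had near neighbours. The gap from a broad domain to the nearest other series-wide region had a median of 1408 bp (quartiles 532 and 3192 bp), against 2463 bp (861 and 6007 bp) for narrower regions. The median was shorter for broad domains on each of the 5 major arms, on chromosome 4 (567 against 694 bp), in heterochromatin (1550 against 2175 bp) and on U, while the quartiles overlapped throughout. On 3R it was close, at 2435 against 2555 bp. Another region lay less than 500 bp away for 86 domains (24.4%), against 16.9% of all series-wide regions, and less than 1000 bp away for 144 (40.9%), against 28.7%. On chromosome 4, 16 of 22 domains had a neighbour within this distance, and the median gap of narrower regions there, 694 bp, was also below it. The nearest neighbour had a region of both replicates for 170 of the 352 domains (48.3%), against 42.9% for narrower regions. Among the series-wide regions found in both replicates, the median gap was 3798 bp for the 340 broad and 4839 bp for the 3489 narrower regions. A domain at 2L:15907088-15914634 stood alone, a case picked after its value was seen, with 143253 bp to the nearest region. It had 2 regions in each replicate, covering 90.2% and 94.8%.

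**Figure D5:**
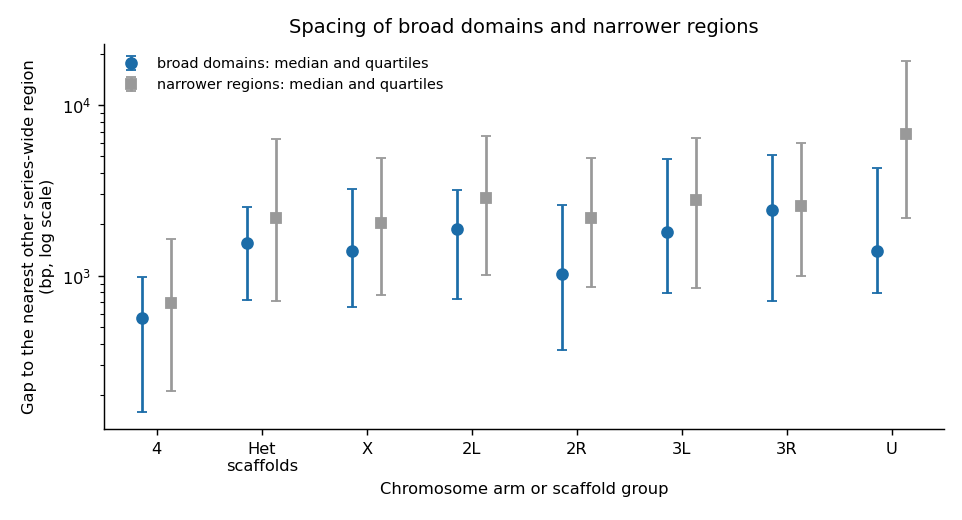
Gap from broad domains (blue) and from narrower regions (grey) to the nearest other series-wide region, as median and quartiles in bp on a log scale, by arm or scaffold group. The median of broad domains is the lower of the pair at each place, for example 567 against 694 bp on chromosome 4, and the quartiles overlap.

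Because of these short gaps, the count of broad stretches depends on how regions are divided. The 3 closest pairs of broad domains were 19, 51 and 159 bp apart. The first pair lay at 3R:4872080-4877576 and 3R:4877596-4884504, and a single replicate 2 region ran across its gap, while replicate 1 had a break there. The second lay at X:6587682-6598470 and X:6598522-6604714, and here a replicate 1 region ran across. The third, at 4:60264-68398 and 4:68558-78822, was divided in both replicates. Joined, the pairs would span 12425, 17033 and 18559 bp, the last 2 of which exceed the widest listed domain. If all series-wide regions less than 500 bp apart were joined, 579 stretches would reach 5000 bp, of which 233 hold no broad domain.

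Most broad domains nonetheless had no other broad domain within 50 kb. The median gap to the nearest other broad domain was 80.7 kb over 351 domains (the one on 2LHet has no other on its scaffold), and 208 domains had none within 50 kb. From narrower regions the median gap to the nearest broad domain was longer, at 122139 bp. For broad domains the median was 20.9 kb on chromosome 4, 49.4 kb on X, 63.2 kb on 2R, 126 kb on 2L, 170 kb on 3L and 252 kb on 3R. For narrower regions it was longer on X (61383 bp), 2R (93342 bp) and 2L (175012 bp). It was shorter on chromosome 4 (10443 bp), 3L (144931 bp) and 3R (189713 bp). Per length, 2R had 3.17 domains per Mb, 3L 2.00, and 2L and 3R 1.65 each. On chromosome 4, 20 of 22 domains had another within 50 kb, against 38.4% of those on the major arms. From narrower regions of chromosome 4 the upper quartile of the gap to a broad domain was 27864 bp, so most of these also lay within 50 kb of one. Taking domains at most 50 kb apart as a run, there were 16 runs of 3 or more, which held 64 domains. There were 5 runs on X, 3 on 2R, 3 on chromosome 4, 2 each on 2L and 3L, and 1 on 3R. Whether such runs exceed what the density of domains gives was not tested. The longest run by number lay at 2R:1137868-1247844, with 7 domains in 110 kb that took up 43.5% of the stretch, and it included the pair absent from both replicates. Its mean score was 0.58. The next, at X:6587682-6758326, had 6 domains with a mean score of 1.03. Median cover in the 2R run was 80.3% in replicate 1 and 62.3% in replicate 2, against 96.5% and 90.6% in the X run.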

How the data were processed

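HP1b ChIP and Input libraries (2 each) were grouped by their titles. The submitters' processing notes name Bowtie 0.12.7, a read mapper. The sources used here do not give the caller of enriched regions, its threshold or how the series-wide list was built. Per the file headers, coordinates follow FlyBase release 5, and the deposited lists hold start, end and 1 score per region. That score has no stated definition and served only to describe and rank regions. The lists hold no read counts, so the depth is unknown. Input libraries entered no comparison.

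A series-wide region was a broad domain when it measured 5000 bp or more. Regions overlapped when they shared at least 1 bp. Gaps run from edge to edge. Shares have 95% Wilson intervals, which treat regions as independent. Regions were named by position: the 10 widest, the 2 widest of each arm and of chromosome 4, the widest of each other scaffold, the 3 highest-scoring, the 3 widest whole in both or absent from both replicates, those with the most pieces and the 3 closest pairs. The members and the alternatives were chosen with earlier results of these data known. Python 3.11.15, numpy 2.4.6, pandas 2.3.3, scipy 1.17.1 and matplotlib 3.10.9 were used. The interval code was tested on 400 simulated domains and returned the state, cover and gap of each.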

Additional observations from a re-analysis of the deposited data

How the results depend on the processing

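Alternatives were judged by the spread between the replicates (1 SD), for counts by a factor of 1.5, and for gaps by the 95% interval of the median (1155 to 1737 bp to any region, 63.3 to 118 kb to a broad domain). Of 78 recomputed summary values, 48 stayed within these limits and 30 moved. The 48 include the values obtained by leaving out 1 replicate. With 2 replicates each value must lie within 1 SD of their mean, so these could not have moved and show no stability. Some alternatives were added after seeing the data. These were joined series-wide regions, narrower regions of at least 1301 bp or of matched score, and omission of the centromeric 2 Mb of 2R. No test was run, so no call could change, and the causes were not tested.

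The number of domains was 755 at 4000 bp, 183 at 6000 bp and 23 at 10000 bp, 579 after joining series-wide regions less than 500 bp apart and 842 after 1000 bp. The ratio of X to the autosomal arms was 1.50 at 4000 bp, 3.62 at 10000 bp and 1.46 in the 50% of regions that scored highest. The ratio of chromosome 4 to the major arms was 2.08 at 4000 bp, 4.72 at 6000 bp, 14.9 at 10000 bp, 4.05 among regions in both replicates and 4.11 in the highest-scoring 50%; it stayed above 1 in each. The ratio of the heterochromatin scaffolds to the major arms changed side, from 0.814 at 5000 bp and 0.619 at 4000 bp to 1.32 at 6000 bp, 1.56 at 10000 bp and 3.53 among regions in both replicates, with 0.756 in the highest-scoring 50%. The mean share in pieces was 20.9% at 4000 bp, 44.0% at 6000 bp, 76.1% at 10000 bp, 11.1% with the highest-scoring 50% of replicate regions, and 15.1% and 7.53% after joining replicate regions less than 500 and 1000 bp apart. The mean share whole was 15.2% at 10000 bp, 57.8% when 50% cover sufficed and 57.5% after joining at 1000 bp. The mean share absent was 14.6% when replicate regions had to lie wholly inside, 0% at 10000 bp and 18.0% with the highest-scoring 50%, for which the median cover was 73.3%. The median gap to a broad domain was 27.6 kb at 4000 bp, 199.6 kb at 6000 bp and 1372 kb at 10000 bp, and the gap to any region 3798 bp among regions in both replicates. Leaving out a replicate gave 27.6 to 36.6% in pieces, 27.0 to 48.6% whole, 0.852 to 3.12% absent and a median cover of 77.5 to 88.6%. No paired analysis was possible because no value comes from a test between groups, the ChIP libraries being the single group compared here.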
